A study of Mus musculus with 7 samples.

Results

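The respiratory chain of sorted Paneth cells (PCs) was examined gene by gene. Members were all protein-coding genes of the count table whose mouse symbol begins with Nduf, Uqcr, Cox4 to Cox8, Atp5, mt-Nd, mt-Co, mt-Cytb or mt-Atp, or is Sdha, Sdhb, Sdhc or Sdhd. The rule gave 111 members of 55414 genes in the table, 98 of them nuclear and 13 encoded by the mitochondrial genome. By complex, 48 nuclear members belonged to complex I (40 subunits and 8 assembly factors of the Ndufaf family), 4 to complex II, 8 to complex III, 19 to complex IV and 19 to complex V. The mitochondrial members comprised 7 of complex I, 1 of complex III, 3 of complex IV and 2 of complex V.

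The study compared PCs of C57BL/6J mice injected with tumour necrosis factor (TNF), a pro-inflammatory cytokine, with PCs of mice given phosphate-buffered saline (PBS). PCs, the granular secretory cells at the bottom of the small intestinal crypts, were sorted 15 h after the injection. There were 3 PBS and 4 TNF libraries, each from a separate mouse. The sources used here do not give the TNF dose, the sex and age of the mice or the sorting gate.

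The respiratory chain sits in the inner mitochondrial membrane. Complex I takes electrons from NADH and complex II takes them from succinate, both hand them through coenzyme Q to complex III, and cytochrome c carries them on to complex IV, which reduces oxygen. Complexes I, III and IV pump protons, and complex V, the ATP synthase, uses the proton gradient to make ATP. Complexes I, III, IV and V combine subunits made inside the mitochondrion with subunits imported from the cytosol, whereas complex II is wholly nuclear. In the crypt, PCs are known for high glycolysis and for handing lactate to neighbouring stem cells, which respire more.

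Libraries held 15511455 to 19193721 counts, and depth did not differ detectably between groups (exact permutation p = 0.429, two-sided over 35 splits). PC identity was checked on 12 markers, whose summed level was 188000 to 312000 CPM (counts scaled to 1e6) after PBS and 178000 to 325000 CPM after TNF. Lyz1 alone took 85100 to 117000 CPM and 90300 to 156000 CPM of it. Of the 12, Nupr1 (2.49), Pla2g2a (1.90) and Mmp7 (0.88) were higher on the log2 scale, Clps (-2.27) and Habp2 (-1.26) were lower, and 7 were not called. Markers of other crypt cells moved with the treatment. The summed enterocyte list (6 of 8 tested markers lower, 1 higher) ran from 767 to 937 CPM after PBS and from 313 to 384 CPM after TNF. Most of it was Vil1, at 562 to 637 CPM after PBS and 235 to 308 CPM after TNF. Apoa1 and Apoa4 were near 0 after TNF. After PBS they were at 22.1 and 8.50 CPM in PBS 2, but at only 1.11 and 1.05 CPM in PBS 1 and 2.39 and 0.795 CPM in PBS 3. The tuft list (10 of 10 lower) ran from 1680 to 2790 CPM after PBS and from 350 to 882 CPM after TNF. The stem cell list (8 of 10 lower, 1 higher) ran from 3900 to 5260 CPM and from 2080 to 2840 CPM. The goblet list (6 of 10 lower, 1 higher) ran from 10200 to 17600 CPM after PBS and from 7330 to 7840 CPM after TNF, the enteroendocrine list (4 of 9 lower) from 30.6 to 101 CPM and from 23.5 to 32.5 CPM, and stromal, endothelial and erythroid markers summed to under 1 CPM in every library. The leukocyte list (1 of 4 lower, 1 higher) summed to 24.8 to 32.0 CPM after PBS and 19.1 to 28.6 CPM after TNF, with Cd3e and Nkg7 at 0. Within it Ptprc was lower (-0.95, edgeR adjusted p = 0.027), whereas S100a9 had 0 counts in every PBS library and 60 to 120 counts in the TNF libraries (edgeR adjusted p = 1.14e-06). S100a8, untested, had 0 counts after PBS and 4 to 13 counts after TNF. The genes named from these marker lists were chosen after their values were seen. The part of these cells in the results below was not tested, and in bulk RNA fewer cells of a type and less RNA per cell cannot be told apart.

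Of the 111 members, 96 passed the filter on low counts, 89 nuclear and 7 mitochondrial. The 15 others were 6 mitochondrial genes at 0 counts, 5 complex IV forms and Ndufb11b at 0, a second identifier of Atp5po at 0, and Ndufa4l2 and Cox5b-ps with up to 15 counts in any library. After TNF, 20 members were higher and 16 were lower at an edgeR adjusted p under 0.05 (differentially expressed genes, DEGs), which is 36 of 96 (37.5%) against 59.6% of all 14329 genes tested. Over all tested genes, 29.5% were higher and 30.1% lower. The CPM values of the TNF libraries lay fully above or below those of the PBS libraries for 35 of the 96 members (36.5%), against 60.7% of all tested genes. Changes were also small: the median absolute log2 fold change was 0.31 over tested members and 0.70 over all tested genes, and 5 members were DEGs with a change of at least 2-fold, against 4530 of the 14329. All 20 rises were nuclear. The falls were 13 nuclear and 3 mitochondrial.

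**Figure D1:**
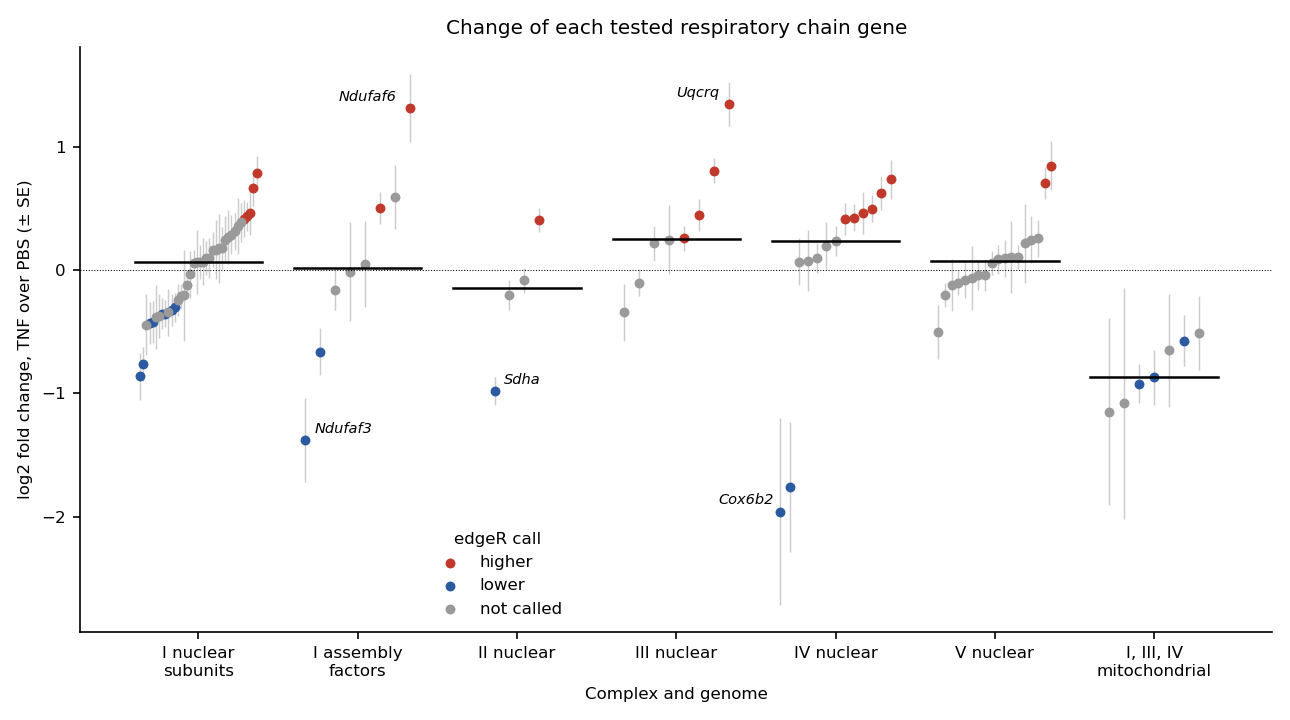
Log2 fold change (TNF over PBS, with SE) of the 96 tested members, by complex and genome, coloured by the edgeR call, with a black line at the median of each set. Complex III and IV nuclear genes have medians of 0.26 and 0.24, complex V lies close to 0, and all 7 mitochondrial mRNAs lie below 0.

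The balance between rises and falls moved with the scaling. With libraries scaled by total counts only, the median of all genes shifted from near 0 to -0.16, and 10 members were higher and 25 lower in place of 20 and 16. The median of the nuclear members moved from 0.09 to -0.07, which is 0.09 above the median of all genes under either scaling. That difference was not steady elsewhere. It was 0.03 with the replicate number as a block and 0.01 with a trend with exon length removed. Leaving out a library took it from -0.04 (without PBS 3) to 0.17 (without PBS 2). The PBS 3 library stood apart from PBS 1 and PBS 2. It was the lowest of the PBS libraries for 75 of the 96 tested members (78.1%), compared with 41.3% of all tested genes, and TNF 1 was the lowest TNF library for 69 (71.9%, compared with 31.4%). Without PBS 3, 15 members were higher and 19 lower, and the nuclear median was -0.03. The balance moved the other way without PBS 1 (19 higher, 8 lower), PBS 2 (20 higher, 8 lower) or TNF 1 (24 higher, 9 lower). Without TNF 3, 16 were higher and 10 lower.

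Among the mitochondrial members, all 7 tested mRNAs had a log2 fold change of -0.51 or lower, and 3 of them passed the test (42.9%, against 59.6% of all tested genes). The 13 mitochondrial members summed to 5330, 5480 and 3240 CPM after PBS and to 1880, 2450, 2810 and 3760 CPM after TNF. Only PBS 3 fell among the TNF values. With 6 members at 0 these sums cover 7 counted mRNAs, and the larger part of each is mt-Co1, whose count is uncertain because of sequence shared with a nuclear copy. As a share of all counts they took 0.496%, 0.585% and 0.394% after PBS and 0.204%, 0.227%, 0.274% and 0.317% after TNF, without overlap. The ratio of mitochondrial to nuclear member counts within a library, which no scaling alters, was 1.07, 1.05 and 0.743 after PBS and 0.408, 0.489, 0.533 and 0.662 after TNF. In every TNF library the mitochondrial members thus held a smaller count relative to the nuclear members than in any PBS library. This ratio too is mostly mt-Co1. Taken apart as shares of all counts, mt-Co1 and mt-Cytb did not overlap between groups. The complex I mitochondrial members did, with 0.0459% in PBS 3 and 0.0542% in TNF 4.

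Mt-Co1, the catalytic subunit of complex IV and the most abundant of these mRNAs, was counted at 3310, 3430 and 2120 CPM after PBS and at 1160, 1460, 1650 and 2200 CPM after TNF. TNF 4 overlapped PBS 3, and the other libraries were apart. The log2 fold change was -0.87 (SE 0.22, edgeR adjusted p = 0.00408). Its ratio to Cox4i1, a nuclear subunit of the same complex, was 33.3, 31.0 and 27.5 after PBS and 10.4, 11.9, 12.1 and 15.5 after TNF. On this ratio the groups did not overlap. Cox4i1 was itself called higher after TNF (log2 fold change 0.42, edgeR adjusted p = 0.0141), so the ratio holds the changes of both genes.

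Mt-Nd6, the complex I subunit encoded by the light strand, was at 66.0, 63.0 and 76.5 CPM after PBS and at 35, 39.9, 25.3 and 45.1 CPM after TNF. All TNF libraries lay below all PBS libraries, and PBS 3 was here the highest library. It fell by 0.92 on the log2 scale (SE 0.16, edgeR adjusted p = 0.00031). Mt-Cytb, the core of complex III, was at 1100, 1100 and 743 CPM after PBS and at 453, 623, 653 and 921 CPM after TNF, with TNF 4 above PBS 3. Its fall of 0.57 (SE 0.21, edgeR adjusted p = 0.0379) was lost without PBS 1, PBS 2, TNF 1, TNF 2 or TNF 3, with edgeR adjusted p from 0.0618 to 0.141.

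The other complex I mRNAs did not pass the test. Mt-Nd2 was at 117, 129 and 12.8 CPM after PBS and at 11.4, 27.8, 56.8 and 68.1 CPM after TNF. PBS 3 lay close to TNF 1 and far under the other PBS libraries, and the log2 fold change of -1.08 had an SE of 0.94 (edgeR adjusted p = 0.374). Mt-Nd4 had the same order, 183, 192 and 33.4 CPM against 23.3, 47.0, 76.8 and 98.0 CPM (log2 fold change -1.15, SE 0.76, edgeR adjusted p = 0.245). Mt-Nd1 (-0.51, SE 0.30) was not called with all libraries (edgeR adjusted p = 0.173), but was at -0.78 without PBS 3 (edgeR adjusted p = 0.0121) and at -0.69 without TNF 4 (edgeR adjusted p = 0.048). Mt-Nd5 was at -0.65 (SE 0.46, edgeR adjusted p = 0.27).

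The ribosomal RNAs of the mitochondrion, which are no members, set the same libraries apart. Mt-Rnr1 was at 600 and 644 CPM in PBS 1 and PBS 2 but at 162 CPM in PBS 3, and at 101 CPM in TNF 1 against 242 to 441 CPM in the other TNF libraries. Relative to mt-Co1, mt-Nd2 counts were 0.0353 and 0.0377 in PBS 1 and PBS 2, 0.00602 in PBS 3 and 0.00976 in TNF 1. The levels of the mitochondrial RNAs relative to each other thus differed between libraries of one group, and what set PBS 3 and TNF 1 apart was not tested.

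**Figure D2:**
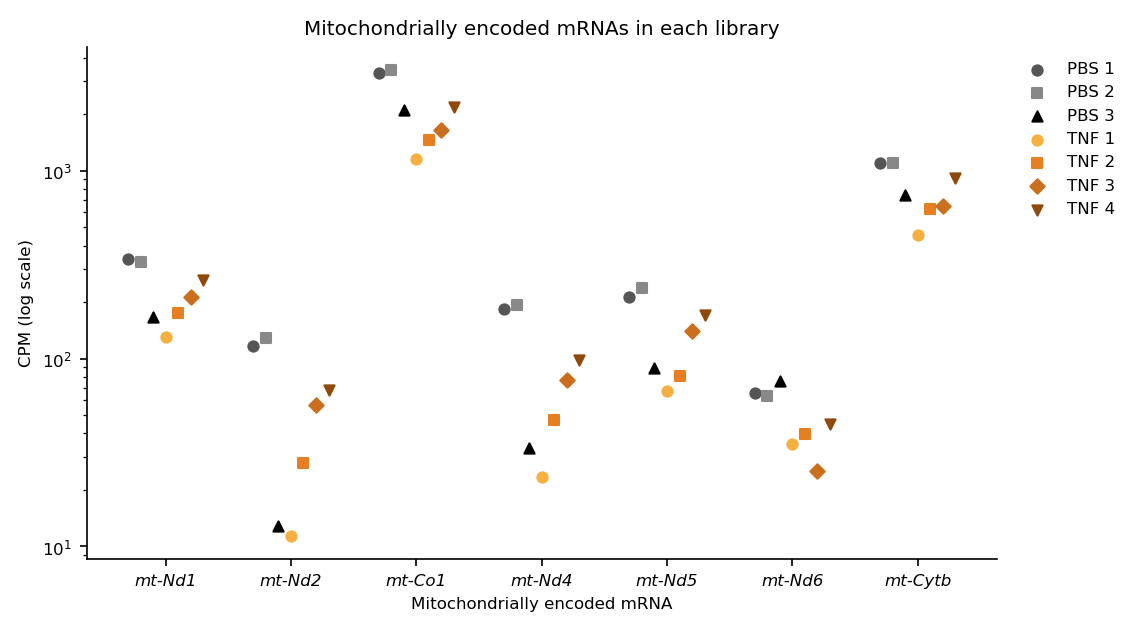
CPM (log scale) of the 7 mitochondrially encoded mRNAs with counts, in each of the 3 PBS and 4 TNF libraries, 1 point per library. PBS 1 and PBS 2 lie above every TNF library in all 7, PBS 3 falls among the TNF libraries in all but mt-Nd6, and for mt-Nd6 the groups are apart.

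The remaining 6 mitochondrial mRNAs, mt-Co2, mt-Co3, mt-Atp6, mt-Atp8, mt-Nd3 and mt-Nd4l, were listed at exactly 0 in all 7 libraries. They lie next to each other. The stretch chrM:6394-11042 (4649 bases, GRCm39) recurs on the minus strand at chr1:24650616-24655265 with 1 substitution and 1 gap base, and all 11 mitochondrial genes of the table that lie wholly in it were at 0, among them these 6. The 7 annotated genes of the chromosome 1 copy had 1 count in all. The edge of the copy runs through mt-Co1, and is shown here because it marks the border of the stretch inside a gene that was counted, with the shared bases in capitals.

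mt-Co1, chrM:6364-6453, plus strand: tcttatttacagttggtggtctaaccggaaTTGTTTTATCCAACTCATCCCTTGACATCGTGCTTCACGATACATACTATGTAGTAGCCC
chromosome 1 copy, chr1:24655206-24655295, minus strand: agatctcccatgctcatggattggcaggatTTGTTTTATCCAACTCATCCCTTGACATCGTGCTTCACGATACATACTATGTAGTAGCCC

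Upstream of the edge 18 of 30 bases differed, and none of the 60 bases past it did. The start of mt-Co2, wholly inside the stretch, cannot be told from its copy at all.

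mt-Co2, chrM:7013-7072, plus strand: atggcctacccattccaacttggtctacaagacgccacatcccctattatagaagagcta
chromosome 1 copy, chr1:24654587-24654646, minus strand: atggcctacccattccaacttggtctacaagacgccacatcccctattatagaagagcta

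Of all 75-base windows of the 6 mRNAs, 98.9% to 100% were found elsewhere in the genome without a mismatch. For mt-Nd4 the share was 61.5% and for mt-Co1 39.8%, and in mt-Nd1, mt-Nd6 and mt-Cytb no window was shared. A count of 0 for these 6 genes therefore says nothing about the level of their mRNA, and the counts of mt-Nd4 and mt-Co1 are uncertain. Both mitochondrial subunits of complex V are among the 6, so complex V was measured by nuclear genes only.

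**Figure D3:**
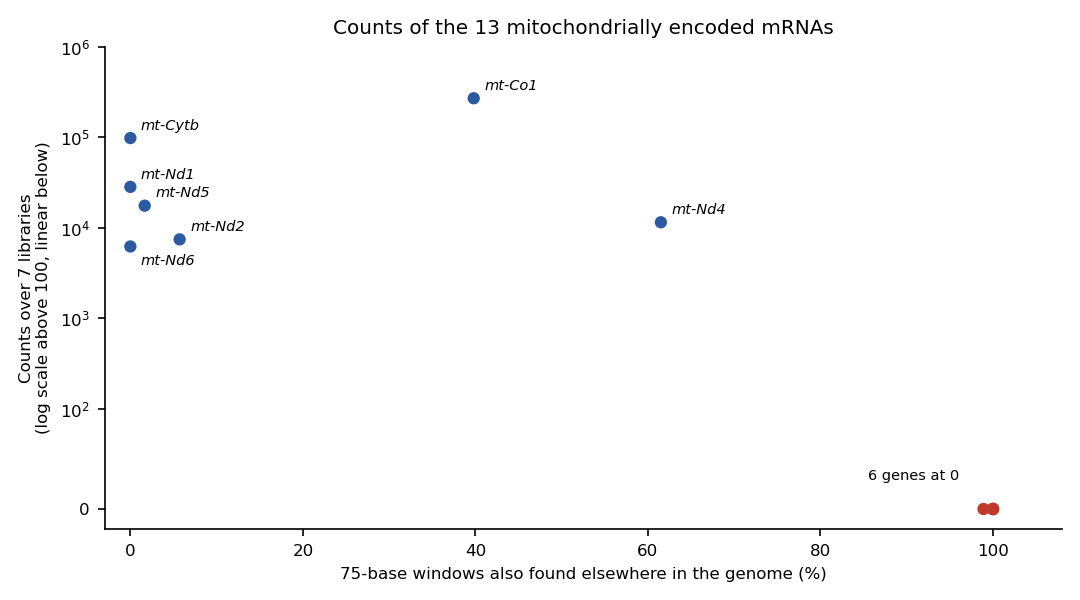
Counts summed over 7 libraries for each of the 13 mitochondrially encoded mRNAs (log scale above 100, linear below) against the percentage of its 75-base windows found elsewhere in the genome. The 6 genes at 0 all have 98.9% to 100% of windows shared, and the 7 counted genes have at most 61.5%.

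Complex II, succinate dehydrogenase, links the TCA cycle to the chain, and its 4 genes did not move together. Sdha, the flavoprotein that oxidises succinate, was at 197, 205 and 183 CPM after PBS and at 91.2, 89.7, 110 and 103 CPM after TNF. The groups were far apart, with means of 195 ± 11.2 CPM (SD, n = 3) and 98.6 ± 9.83 CPM (SD, n = 4). Sdha was 1.98-fold lower after TNF (log2 fold change -0.98, SE 0.11, edgeR adjusted p = 2.65e-06) and was the DEG with the smallest adjusted p among the members. Sdhd, a membrane anchor, went the other way, with 88.6, 86.9 and 84.3 CPM after PBS and 107, 111, 114 and 127 CPM after TNF. Every TNF library lay above every PBS library (log2 fold change 0.41, SE 0.10, edgeR adjusted p = 0.00283), although the call was lost with scaling by total counts (0.24, edgeR adjusted p = 0.109). The iron-sulphur subunit Sdhb (-0.20, SE 0.12, edgeR adjusted p = 0.156) and the anchor Sdhc (-0.08, SE 0.10, edgeR adjusted p = 0.531) were not called. With scaling by total counts Sdhb was called lower (-0.37, edgeR adjusted p = 0.0284), so that 2 of the 4 genes were lower and none higher. The ratio of Sdha to Sdhd counts within a library, free of scaling, was 2.22, 2.36 and 2.17 after PBS and 0.856, 0.811, 0.966 and 0.811 after TNF. Sdha counts thus exceeded Sdhd counts in every PBS library and stayed under them in every TNF library. This crossing holds for raw counts only, since the transcripts have 3073 (Sdha) and 1258 (Sdhd) bases. Per kb of transcript, mean Sdha was under mean Sdhd in both groups (63.5 and 68.8 CPM after PBS, 32.1 and 91.1 CPM after TNF).

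In complex III, 4 of 8 nuclear members were higher (29.5% of all tested genes were) and none lower, with a median log2 fold change of 0.26 (2 higher, 1 lower and a median of 0.10 with scaling by total counts). Without PBS 3, 3 were higher, 1 was lower and the median was 0.16. Uqcrq, a small accessory subunit, was at 45.6, 48.1 and 35.4 CPM after PBS and at 75.9, 111, 115 and 136 CPM after TNF. The lowest TNF library, TNF 1, still lay well above the highest PBS library. This was the largest rise among members, 2.54-fold (log2 fold change 1.35, SE 0.18, edgeR adjusted p = 3.39e-05). Uqcrfs1, the Rieske iron-sulphur protein that passes electrons to cytochrome c1, was at 70.3, 64.7 and 64.7 CPM after PBS and at 112, 115, 110 and 133 CPM after TNF. The groups did not overlap, and the rise was 1.76-fold (log2 fold change 0.81, SE 0.10, edgeR adjusted p = 1.33e-05). Uqcr10, the nuclear complex III gene with the highest level per kb of transcript (104 CPM per kb), rose by 0.45 (SE 0.13, edgeR adjusted p = 0.00741, or 0.193 with scaling by total counts). The core protein Uqcrc1 rose by 0.26 (SE 0.10, edgeR adjusted p = 0.0369), a call that 9 of the 15 alternative settings did not keep, among them leaving out PBS 1, PBS 3, TNF 2, TNF 3 or TNF 4 (edgeR adjusted p from 0.059 to 0.105). Cyc1, cytochrome c1 itself, has a symbol outside the rule and was not called (0.08, SE 0.10, edgeR adjusted p = 0.524).

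**Figure D4:**
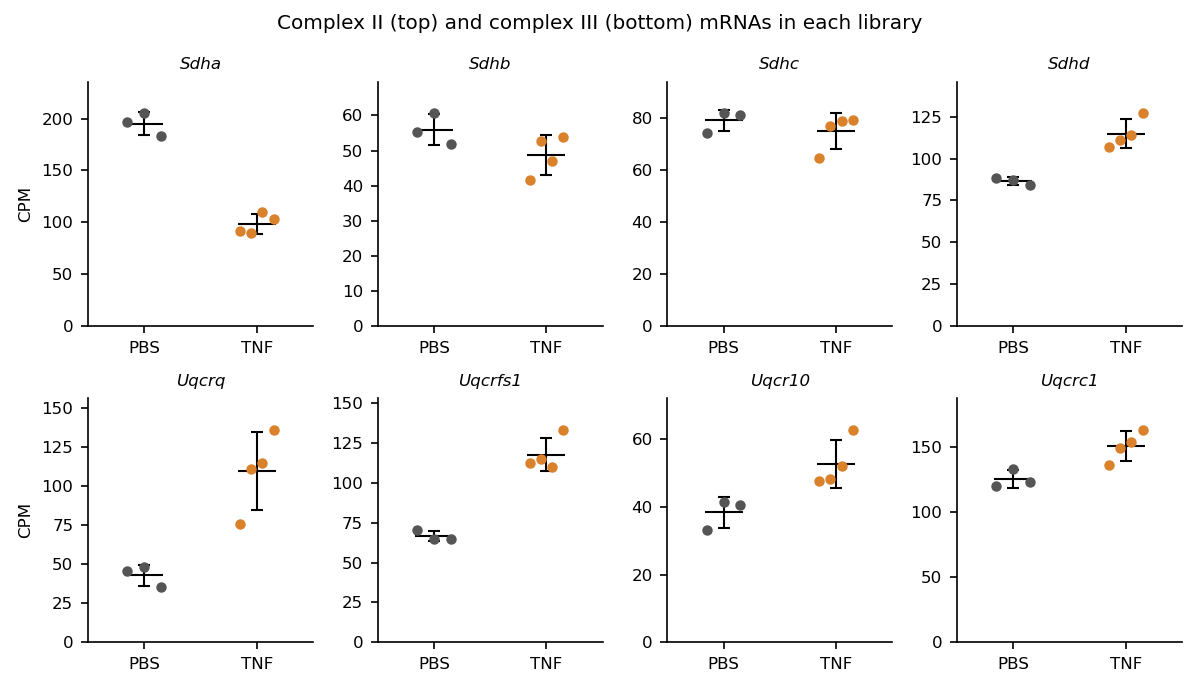
CPM of the 4 complex II genes (top) and of the 4 complex III DEGs (bottom) in each library, with mean and SD (3 PBS, 4 TNF). The groups are apart for Sdha (lower after TNF), for Sdhd and for all 4 complex III genes (higher after TNF), and overlap for Sdhb and Sdhc.

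Complex I had DEGs in both directions. Of its 38 tested nuclear subunits, 5 were higher, 8 lower (34.2% called, against 59.6% of all tested genes) and 25 not called, with a median of 0.07 (2 higher, 12 lower and a median of -0.08 with scaling by total counts). The count of 8 lower fell to 3 without PBS 1, TNF 1 or TNF 3 and to 2 without PBS 2, the count of 5 higher fell to 3 without PBS 3, TNF 3 or TNF 4, and the median was -0.11 without PBS 3 and -0.02 without TNF 4. Ndufb6, an accessory subunit of the membrane arm, was at 16.6, 16.7 and 17.6 CPM after PBS and at 25.9, 29.1, 27.3 and 35.5 CPM after TNF. The PBS libraries lay within a narrow band and all TNF libraries above it (log2 fold change 0.79, SE 0.14, edgeR adjusted p = 0.000203). Ndufs4, an accessory subunit of the matrix arm whose loss causes complex I deficiency, was at 26.0, 27.4 and 25.3 CPM after PBS and at 34.3, 43.6, 35.8 and 53.5 CPM after TNF. Again no TNF value reached down to the PBS values (0.67, SE 0.15, edgeR adjusted p = 0.0016).

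Among the falls, Ndufab1, which is both a complex I subunit and the mitochondrial acyl carrier protein, was at 15.3, 20.6 and 15.7 CPM after PBS and at 9.51, 7.19, 9.05 and 12.2 CPM after TNF. The groups were apart (-0.86, SE 0.19, edgeR adjusted p = 0.00153), but 26.3% of its 75-base windows recur elsewhere in the genome, so its count is uncertain. Ndufv3, a small subunit of the NADH-oxidising module, was at 31.2, 25.8 and 22.1 CPM after PBS and at 15.3, 15.0, 15.5 and 16.4 CPM after TNF. The TNF libraries were tight and all below PBS (-0.76, SE 0.14, edgeR adjusted p = 0.000346). The other 6 subunits that were lower ran from -0.43 to -0.30 and the other 3 that were higher from 0.42 to 0.47, and each of these 9 calls was lost under at least 1 of the 15 alternative settings.

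The 8 Ndufaf assembly factors build complex I without staying in it. Ndufaf6 was at 2.60, 3.05 and 1.80 CPM after PBS and at 4.98, 6.25, 6.80 and 6.87 CPM after TNF, without overlap (log2 fold change 1.32, SE 0.28, edgeR adjusted p = 0.00104). Ndufaf3 was at 9.52, 8.76 and 5.04 CPM after PBS and at 4.98, 2.42, 2.09 and 2.42 CPM after TNF, so that TNF 1 lay just under PBS 3 (-1.38, SE 0.34, edgeR adjusted p = 0.00282). Ndufaf4, at 16.3 to 20.8 CPM after PBS and 24.9 to 27.3 CPM after TNF, rose by 0.51 (SE 0.13, edgeR adjusted p = 0.0038, or 0.151 with scaling by total counts). Ndufaf1 fell by 0.66 (SE 0.19, edgeR adjusted p = 0.00817). Ndufaf3 and Ndufaf4 are known partners in an early assembly step, and their mRNAs moved in opposite directions. Ndufaf2, Ndufaf5, Ndufaf7 and Ndufaf8 were not called, with log2 fold changes of -0.01, 0.05, -0.16 and 0.60, and the last passed the test without PBS 1 or TNF 1 (edgeR adjusted p = 0.0431 and 0.0397).

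In complex IV, cytochrome c oxidase, 6 of 13 tested nuclear members were higher and 2 lower (61.5% called, close to the 59.6% of all tested genes), with a median of 0.24 (3 higher, 2 lower and a median of 0.09 with scaling by total counts). The median was 0.38 without PBS 1, 0.42 without PBS 2 and 0.19 without PBS 3, each over 14 tested genes, and 0.20 without TNF 4. Without PBS 3, 4 were higher. None was lower without PBS 1, and 1 was lower without PBS 2, PBS 3, TNF 1, TNF 3 or TNF 4. With the replicate number as a block, 4 were higher and none lower. Cox7a2, the form of subunit VIIa used outside muscle, was at 52.8, 57.9 and 37.4 CPM after PBS and at 69.3, 87.4, 76.0 and 98.2 CPM after TNF. The groups were apart (log2 fold change 0.74, SE 0.16, edgeR adjusted p = 0.00118). Cox7a2l, a relative of Cox7a2 known from strains other than C57BL/6J for joining complexes III and IV into supercomplexes, was at 56.5 to 69.1 CPM after PBS and 82.7 to 101 CPM after TNF (0.50, SE 0.11, edgeR adjusted p = 0.00133). Cox7c rose by 0.63 (SE 0.14, edgeR adjusted p = 0.00144). Both Cox7a2l (34.5% of windows) and Cox7c (70.0%) share sequence with copies elsewhere and are uncertain. Cox4i1, the ubiquitous form of subunit IV, was at 99.6, 111 and 77.1 CPM after PBS and at 112, 122, 136 and 141 CPM after TNF. TNF 1 barely exceeded PBS 2, and the rise of 0.42 (SE 0.13, edgeR adjusted p = 0.0141) was not called without PBS 3 (0.28, edgeR adjusted p = 0.0724) or with scaling by total counts (0.26, edgeR adjusted p = 0.0992). It shares 514 exonic bases with Emc8 on the opposite strand. Cox7b rose by 0.47 (SE 0.17, edgeR adjusted p = 0.0317), a call lost without PBS 1, PBS 3, TNF 2, TNF 3 or TNF 4 (edgeR adjusted p from 0.0516 to 0.121) and with scaling by total counts (edgeR adjusted p = 0.09). The sixth rise, Cox5a (0.43, SE 0.11, edgeR adjusted p = 0.00334), is named after its value was seen. Its call was lost with scaling by total counts (0.26, edgeR adjusted p = 0.0934), and 1727 of its exonic bases (41.4%) lie opposite Gm26631, so that without known strand use its count is uncertain.

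Several complex IV subunits exist as paralogous forms for different tissues, and in these PCs the ubiquitous forms were the ones counted. Cox4i2, Cox6a2, Cox7b2, Cox8b and Cox8c had 0 counts in all 7 libraries, and Ndufa4l2 had 2 counts in each PBS library and 0 in each TNF library, too few to test. Cox6a1, Cox6b1 and Cox8a, the forms used in most tissues, stood at 25.8 to 43.5, 74.6 to 117 and 72.4 to 105 CPM and were not called. Both falls were of forms known from other tissues and at trace levels. Cox7a1, the muscle form, was at 1.07 to 1.36 CPM after PBS and 0.321 to 0.392 CPM after TNF (-1.76, SE 0.53, edgeR adjusted p = 0.0109, or 0.0511 without PBS 1). Cox6b2, the testis form, was at 0.742 to 1.17 CPM after PBS and 0 to 0.589 CPM after TNF (-1.96, SE 0.76, edgeR adjusted p = 0.0387), and leaving out any library but TNF 2 ended its call (edgeR adjusted p from 0.0575 to 0.102). Ndufa4, named as a complex I gene but a subunit of complex IV, had the highest level per kb of all nuclear members with complex I symbols (121 CPM per kb) and was not called (0.27, SE 0.22, edgeR adjusted p = 0.319).

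Complex V had the smallest share of DEGs among the nuclear sets, 2 of 18 tested, both higher (11.1%, against 59.6% of all tested genes), and a median of 0.07 (2 higher, 2 lower and a median of -0.10 with scaling by total counts). Without PBS 3 or TNF 3, 1 was lower, and the median was -0.08 without PBS 3 and -0.01 without TNF 4. It also held the nuclear members with the highest levels per kb. Atp5f1b, the catalytic beta subunit (405 CPM per kb), was at 808, 835 and 735 CPM after PBS and at 728, 747, 793 and 819 CPM after TNF. The libraries of both groups were interleaved (log2 fold change -0.04, SE 0.12, edgeR adjusted p = 0.788). Of the 2 DEGs, Atp5mc3, a gene for the c subunit of the rotor ring, was at 84.5, 88.3 and 76.6 CPM after PBS and at 107, 135, 149 and 151 CPM after TNF. All TNF libraries exceeded all PBS libraries (0.71, SE 0.13, edgeR adjusted p = 0.000268). Atp5mc1 and Atp5mc2 code for the same mature c subunit and were not called (-0.08 and -0.12), although 76.4% and 88.0% of their windows recur elsewhere and their counts are uncertain. Atp5mk, a small membrane subunit, rose by 0.85 (SE 0.20, edgeR adjusted p = 0.00231) at 5.99 to 9.67 CPM after PBS and 12.3 to 17.3 CPM after TNF, but shares 2827 exonic bases with Taf5 on the opposite strand. Atp5if1, the inhibitor that stops the ATP synthase from running backwards, was at 44.0, 49.3 and 26.0 CPM after PBS and at 22.2, 24, 34.5 and 31.6 CPM after TNF. PBS 3 fell among the TNF libraries, and the log2 fold change of -0.50 (SE 0.22) was not called (edgeR adjusted p = 0.0643), whereas without PBS 3 it was -0.74 (edgeR adjusted p = 0.00207) and without TNF 3 it was -0.62 (edgeR adjusted p = 0.03).

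**Figure D5:**
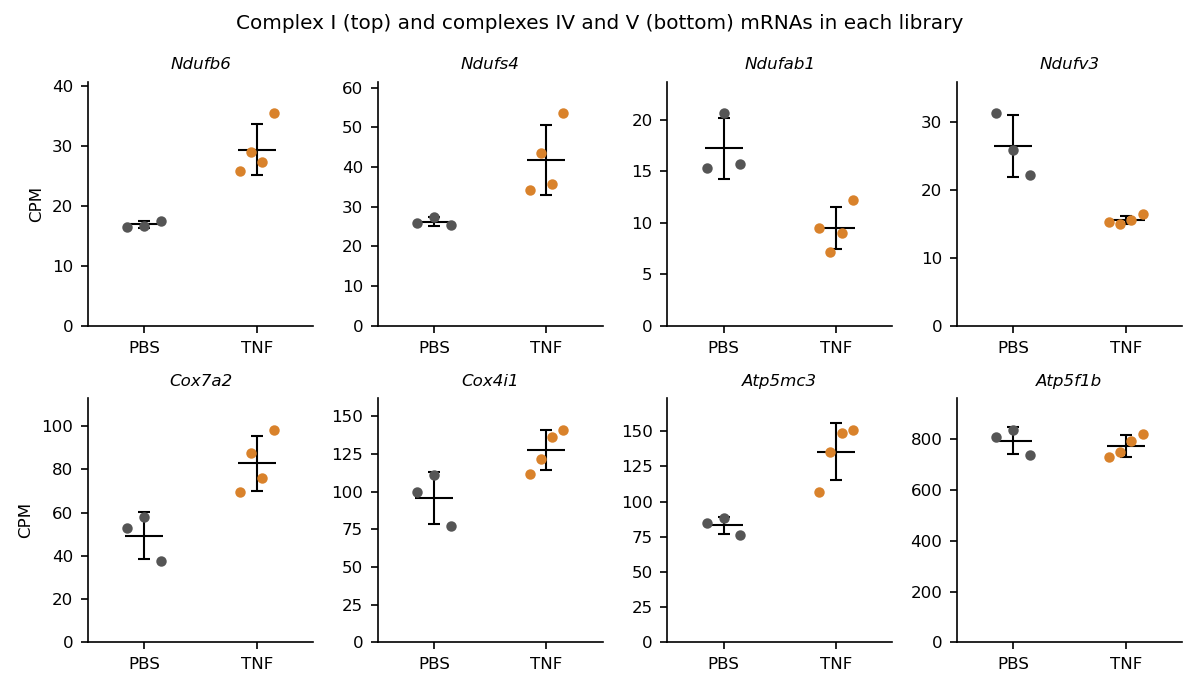
CPM of 4 complex I genes (top) and of 2 complex IV and 2 complex V genes (bottom) in each library, with mean and SD (3 PBS, 4 TNF). Ndufb6, Ndufs4, Cox7a2, Cox4i1 and Atp5mc3 are higher and Ndufab1 and Ndufv3 lower in every TNF library, and Atp5f1b overlaps.

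As sums, the nuclear members held 5000, 5240 and 4370 CPM after PBS and 4620, 5020, 5280 and 5680 CPM after TNF. The groups overlapped. The complex II sum was lower in every TNF library (400 to 434 CPM after PBS, 304 to 364 CPM after TNF). The nuclear complex III sum was higher (477 to 553 CPM, then 589 to 771 CPM). In complex II only Sdha was called lower (means of 195 and 98.6 CPM), and Sdhd was called higher. In complex III, Uqcrq (43.0 and 110 CPM) and Uqcrfs1 (66.6 and 117 CPM) rose most, and 4 of 8 genes were not called. These sums therefore do not stand for every gene of a complex. Of the 89 tested nuclear members, 12 had over 20% of windows shared with copies elsewhere; the other 77 gave 18 higher, 12 lower and a median of 0.08.

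Promoter sequences are shown for Sdha, the DEG with the smallest adjusted p among the members, and for Uqcrfs1, Ndufs4 and Uqcrc1. Uqcrfs1 and Ndufs4 are among the 20 tested nuclear members whose TNF libraries lay fully above PBS, a trait that does not single them out. Uqcrc1, whose small rise most settings did not keep, is shown because its window holds the NRF1 motif. The sequences are the 300-base RefSeq windows (GRCm38.p6) from 250 bases before to 50 bases after the start. Capitals mark a motif, read on both strands.

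Sdha, chr13:74350191-74350490, minus strand: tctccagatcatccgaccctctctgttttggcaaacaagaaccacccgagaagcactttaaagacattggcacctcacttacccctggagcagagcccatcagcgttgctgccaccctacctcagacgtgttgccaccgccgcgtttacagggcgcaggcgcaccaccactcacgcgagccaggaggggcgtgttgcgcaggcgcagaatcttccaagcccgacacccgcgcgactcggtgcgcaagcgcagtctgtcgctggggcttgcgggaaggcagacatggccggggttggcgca
Uqcrfs1, chr13:30545267-30545566, minus strand: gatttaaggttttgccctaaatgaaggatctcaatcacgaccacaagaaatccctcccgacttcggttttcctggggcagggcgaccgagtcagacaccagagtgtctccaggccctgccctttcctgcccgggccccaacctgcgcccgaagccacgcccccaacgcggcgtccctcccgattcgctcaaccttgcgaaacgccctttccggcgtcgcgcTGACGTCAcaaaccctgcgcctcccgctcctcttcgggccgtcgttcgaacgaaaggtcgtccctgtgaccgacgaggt
Uqcrc1, chr9:108936398-108936697, plus strand: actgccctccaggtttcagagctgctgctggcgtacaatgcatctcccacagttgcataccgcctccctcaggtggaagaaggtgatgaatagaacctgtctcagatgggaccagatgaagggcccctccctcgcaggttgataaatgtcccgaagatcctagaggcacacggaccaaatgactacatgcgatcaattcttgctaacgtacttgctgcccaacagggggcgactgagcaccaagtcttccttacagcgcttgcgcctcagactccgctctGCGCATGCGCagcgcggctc
Ndufs4, chr13:114388045-114388344, minus strand: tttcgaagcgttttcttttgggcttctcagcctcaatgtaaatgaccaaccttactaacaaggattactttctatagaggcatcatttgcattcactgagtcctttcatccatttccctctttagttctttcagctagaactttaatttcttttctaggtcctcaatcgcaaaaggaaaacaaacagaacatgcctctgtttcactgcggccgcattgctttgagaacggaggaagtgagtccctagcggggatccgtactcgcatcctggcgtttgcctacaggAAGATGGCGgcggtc

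The motifs searched were GCGCATGCG for NRF1, CCGGAAG for GABPA and other ETS factors, AAGATGGCG for YY1, TGACGTCA for CREB and GGGACTTTC for NF-kB. NRF1 and GABPA are the classic regulators of nuclear respiratory genes. RefSeq windows were matched for 76 of 97 nuclear symbols (81 windows). The NRF1 motif was in 12.3% of them (1.75% of all 32817 windows), the GABPA motif in 22.2% (8.86%), the YY1 motif in 9.88% (1.40%), the CREB motif in 4.94% (1.79%) and the NF-kB motif in 1.23% (0.353%). Of the windows shown, Uqcrfs1 held the CREB motif, Uqcrc1 the NRF1 motif on both strands in overlapping matches, and Ndufs4 the YY1 motif, while the Sdha window held none of these letters. Among windows not shown, those of Atp5mc3, Cox7a2 and Uqcr10, which also rose without overlap, held none of the motifs. That of Ndufb6, which rose, held the GABPA motif, and that of Ndufv3, which fell, held the NF-kB motif. Whether a motif goes with a rise or a fall was not tested.

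The factors themselves were measured as well. Nrf1 rose by 0.62 (SE 0.13, edgeR adjusted p = 0.00119). Its PBS and TNF means were 22.6 ± 1.73 CPM (SD, n = 3) and 34.8 ± 4.85 CPM (SD, n = 4). Gabpa was not called (-0.24, SE 0.12, edgeR adjusted p = 0.0879, or 0.0396 with scaling by total counts). Esrra, the oestrogen-related receptor that partners PGC-1, rose by 0.41 (SE 0.12, edgeR adjusted p = 0.00911), which was lost without PBS 1 (edgeR adjusted p = 0.0525) and with scaling by total counts (edgeR adjusted p = 0.285). Ppargc1a and Ppargc1b, the PGC-1 coactivators of mitochondrial biogenesis, were not called (-0.30 and -0.11). Of the 15 tested regulators on the list, 6 were higher and 3 lower (9 of 15, against 59.6% of all tested genes). After their values were seen, the hypoxia factor Hif1a is named as the largest rise (2.94, SE 0.12, edgeR adjusted p = 2.93e-10; 60.8 ± 5.82 CPM, SD, n = 3, and 465 ± 15.8 CPM, SD, n = 4) and Esrrg as the largest fall (-2.82, SE 0.22, edgeR adjusted p = 1.8e-07).

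Of 30 tested genes for mitochondrial transcription, RNA processing and DNA upkeep, 3 were higher and 9 lower (12 of 30, under the 59.6% of all tested genes), with a median of 0.03. Polrmt, the mitochondrial RNA polymerase, fell by 0.87 (SE 0.14, edgeR adjusted p = 0.000123); its PBS and TNF means were 21.8 ± 2.30 CPM (SD, n = 3) and 11.9 ± 0.879 CPM (SD, n = 4). Lrpprc, which stabilises mitochondrial mRNAs, fell by 0.50 (SE 0.12, edgeR adjusted p = 0.00228), whereas its partner Slirp (0.29, SE 0.30) and the DNA-packaging factor Tfam (0.13, SE 0.13) were not called. Chosen after their values were seen, Tfb1m, the ribosomal RNA methyltransferase, fell by 3.46 (SE 0.34, edgeR adjusted p = 1.3e-06) and the DNA helicase Twnk fell by 1.18 (SE 0.15, edgeR adjusted p = 1.08e-05).

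Among 50 tested assembly factors and carriers outside the rule, 8 were higher and 12 lower (20 of 50, under the 59.6% of all tested genes; median -0.04). Cycs, cytochrome c, rose by 0.80 (SE 0.17, edgeR adjusted p = 0.000826). AA467197, the mouse gene for the NDUFA4-like protein NMES1, had PBS and TNF means of 1.96 ± 1.2 CPM (SD, n = 3) and 0.956 ± 0.274 CPM (SD, n = 4) and did not pass the test (-1.04, SE 0.51, edgeR adjusted p = 0.0941, or 0.049 without PBS 1). The following were chosen after their values were seen. Sdhaf1, which helps insert iron-sulphur clusters into Sdhb, rose by 1.93 (SE 0.14, edgeR adjusted p = 9.07e-08). Bcs1l, which places Uqcrfs1 into complex III, fell by 3.12 (SE 0.37, edgeR adjusted p = 7.24e-06), and Lyrm7, the chaperone of Uqcrfs1, fell by 2.05 (SE 0.50, edgeR adjusted p = 0.00298). Uqcrfs1 itself had risen. The complex I factor Timmdc1 fell by 1.83 (SE 0.17, edgeR adjusted p = 5.32e-07).

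Other mitochondrial lists gave a frame for these values. Genes of mitochondrial mass and import were higher in 12 of 22 tested and lower in none (54.5% called, against 59.6% of all tested genes; median 0.36), as with Timm17a, a channel subunit of the inner membrane translocase (1.14, SE 0.11, edgeR adjusted p = 1.54e-06). Mitochondrial ribosomal proteins were higher in 29 of 77 and lower in 11 (51.9% called, median 0.27). The TCA cycle list was higher in 4 of 17 and lower in 7 (64.7% called, median -0.12). In it Ogdh, a subunit of the 2-oxoglutarate dehydrogenase upstream of succinate, fell by 1.03 (SE 0.12, edgeR adjusted p = 5.47e-06), Fh1, the fumarase that follows succinate dehydrogenase in the cycle, fell by 0.56 (SE 0.13, edgeR adjusted p = 0.00213), and citrate synthase Cs rose by 0.37 (SE 0.10, edgeR adjusted p = 0.00657). Of 9 inflammation-linked mitochondrial genes, 3 were higher and 2 lower (55.6% called, median -0.22). Sod2, the superoxide dismutase of the matrix, rose by 0.93 (SE 0.09, edgeR adjusted p = 1.23e-06), the uncoupling protein gene Ucp2 fell by 0.86 (SE 0.14, edgeR adjusted p = 0.000108), and Acod1, which makes itaconate, an inhibitor of succinate dehydrogenase, had 0 counts in every PBS library and a mean of 5.88 ± 0.564 CPM (SD, n = 4) after TNF. The leukocyte markers S100a8 and S100a9 were likewise at 0 after PBS and counted in every TNF library. Of the other tested markers of that list, Ptprc was lower (-0.95), and Lyz2 (-0.23) and Itgam (0.14) were not called. The list summed to 24.8 to 32.0 CPM after PBS and 19.1 to 28.6 CPM after TNF. The part of leukocytes in the Acod1 counts was not tested. The 6 genes of the TCA cycle and inflammation lists were named after their values were seen, as was Timm17a.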

How the data were processed

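Total RNA of sorted PCs was read single-end on an Element AVITI instrument. The authors deposited raw counts of whole reads per gene. Per the labels, the submitters' processing notes name FastQC, Trimmomatic 0.39, STAR 2.7.10a, DESeq2 and the builds mm10 and mm39. Not given in the sources used here are the counting program, its annotation, its treatment of reads with several matches and whether it used strand. Without that, reads of overlapping genes on opposite strands cannot be told apart.

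Symbols came by identifier from GENCODE M39 (GRCm39, 54749 of 55414 matched). All 7 count columns were used. Counts were tested in edgeR 4.0.16 (R 4.3.3) by its robust two-sided quasi-likelihood test after filterByExpr and TMM scaling, without covariates, and p-values were Benjamini-Hochberg adjusted over all 14329 tested genes (threshold 0.05). CPM use TMM-scaled library sizes. SE is the fitted log2 fold change divided by the root of F. Replicate numbers did not pair the samples. Exact windows of 75 bases were searched in GRCm39 with blastn 2.17.0, and members with over 20% of windows shared are called uncertain. The scripts were tested on simulated data.

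Named were all mitochondrial and Sdh members, the 4 largest rises and falls among nuclear DEGs of each other complex, the member with the highest CPM per kb in each complex, tissue-specific forms, Atp5if1, the Ndufaf genes and 12 related genes. Some items are not reported here. Members, lists and this rule were chosen with earlier results of these data known. Alternatives were 2 other scalings, scaling without alpha-defensins and Lyz1, 2 other filters, the replicate number as a block, removal of a trend with exon length, the DESeq2 1.42.0 test and leaving out each library.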

Additional observations from a re-analysis of the deposited data

Results flagged for a closer look

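Among the named genes that were tested, the gap between 1 TNF library and the nearest other, divided by the range of the 4 TNF libraries, passed Dixon's 95% critical value for 4 values for 2 of 56 genes. Chance gives about 1 in 20, or 2.8 of 56, so 2 are no more than chance gives. For Ndufaf3 the ratio was 0.885, with TNF 1 at 4.98 CPM and the other TNF libraries at 2.09 to 2.42 CPM. For Ndufaf4 it was 0.832, with TNF 4 at 27.3 CPM and the others at 24.9 to 25.3 CPM. The PBS group of 3 was not tested in this way.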

How the results depend on the processing

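Of the 36 members called, 16 were called under all 15 alternatives (10 higher, 6 lower), and no called member changed sign under any of them; of the 60 not called, 45 were called under none. The counts of members called lower and higher were 16 and 20. Scaling by total counts gave 25 and 10, together with the shift of all genes given above. Leaving out each library in turn gave 8 to 19 lower, 15 to 24 higher, 24 to 31 nuclear members called (33 with all libraries) and 2 to 4 mitochondrial members called (3 with all). Fewer than 11 members were lower without PBS 1 (8), PBS 2 (8), TNF 1 (9) and TNF 3 (10). The nuclear median ran from -0.03 to 0.17 and the mitochondrial median from -1.05 to -0.66. Apart from these and the replicate block, these 4 counts stayed within 1.5 times. With scaling by total counts the nuclear median was -0.07, below its range over libraries left out, and the mitochondrial median was -1.04. Under the other alternatives both medians stayed within the ranges given. By complex, the DESeq2 test gave 5 complex I subunits lower (8 with edgeR), and complex V had 2 lower with the length trend removed and 1 with the DESeq2 test or no filter (0 with edgeR). Same-numbered libraries did not deviate together (r = -0.299, -0.0314 and -0.174), so the numbers name samples only. With the replicate block, 10 members were lower, 14 higher and 21 nuclear members called. TNF 4 has no partner there. Of the 60 uncalled members, 29 changed sign under at least 1 alternative (16 with total counts only, 5 with the replicate block, 4 with the length trend removed, 27 with a library left out). Among the named genes, carriers and regulators included, these were, with total counts only, Cox8a (-0.05), Cox6a1 (-0.11), Ndufaf5 (-0.09), Cyc1 (-0.08) and Tfam (-0.05). With the replicate block they were Cox6a1 (-0.03), Ndufaf2 (0.15) and Ndufaf5 (-0.02), and with the length trend removed Cyc1 (-0.02). Over the libraries left out in turn, the named genes whose ranges reached or crossed 0 were Cox8a (-0.03 to 0.16), Atp5f1b (-0.10 to 0.00), Cox6a1 (-0.04 to 0.28), Atp5mc1 (-0.15 to 0.02), Atp5mc2 (-0.26 to 0.02), Ndufaf2 (-0.28 to 0.16), Ndufaf5 (-0.22 to 0.34) and Slirp (-0.01 to 0.54). Depth limits the trace forms, of which Ndufa4l2 had too few counts to test.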
